A study of Mus musculus with 2 samples.

Results

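The 94 genes described here are the potassium channel genes of the mouse, measured by total RNA sequencing of the heart. They were chosen by name alone: every gene whose symbol begins with Kcn and that has at least 1 protein-coding transcript was taken, the antisense RNA Kcnq1ot1 was left out, and the genes were joined by identifier to the gene-level values. They are 94 of the 55536 annotated mouse genes in the data. The samples form 1 group with 2 biological replicates, called hearts here: heart tissue of male B6CASTF1/J mice, the first-generation offspring of B6 and CAST parents, aged 36 days and with no treatment named in the labels. Each library was made from 300 ng of total RNA after reduction of ribosomal RNA, with ERCC spike-ins, which are synthetic RNAs, added. The labels list them as distinct biosamples that share 1 donor entry, and the sources used here do not say whether they come from separate animals, so the spread between them may be partly technical. There is no control group, so the values describe the make-up of the channel genes and how far the hearts differ.

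Potassium channels let potassium ions leave the cell and so bring the heart muscle cell back to rest after each beat and hold it there. A pore is built from subunits that each contribute a short loop, the selectivity filter, which lets potassium pass and holds back sodium. Inward rectifiers hold the resting potential, voltage-gated channels repolarise the cell, channels of the Kcnk family carry background current, and auxiliary subunits alter gating or traffic of the pores. In the adult mouse ventricle, repolarisation is known to rest mainly on transient outward and slowly inactivating voltage-gated currents, whereas the currents of KCNH2 and KCNQ1 are known chiefly for their role in the human heart.

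The libraries held 41846508 and 42481559 expected counts in replicates 1 and 2, of which 203838 and 199815 fell on spike-ins. Levels are in TPM, a measure of transcript abundance corrected for length and library size, given as mean ± SD over the hearts (n = 2 throughout), and come from the first of 2 deposited quantifications unless the second is named. All 5 cardiomyocyte markers were present, Myh6 at 7641 and 8514 TPM. The 4 ventricular markers summed to 6866 and 7521 TPM and the 5 atrial markers to 1246 and 1100 TPM in replicates 1 and 2, so markers of both chambers were present. As a ratio, the largest gap in the summed marker lists was in adipocyte genes, 61.5 TPM in replicate 1 and 4.30 TPM in replicate 2. In bulk tissue, fewer cells of a type and less RNA per cell cannot be told apart.

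The selectivity filter is shown first, because it is the stretch of coding sequence that the pore genes share and the auxiliary genes lack. The codons of the filter were searched in frame as 5 codons: threonine or serine, then isoleucine, valine, leucine or threonine, then glycine, then tyrosine, phenylalanine or leucine, then glycine. For 10 abundant pore genes, 33 coding bases of the main transcript are printed 5′ to 3′ on the gene's strand, with the glycine, aromatic and glycine codons in capitals. The bases are those of the GENCODE M21 transcripts on mm10, the B6 reference, and the CAST allele was not read.
Kcnk3 first loop: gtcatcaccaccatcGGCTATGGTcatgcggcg
Kcnk3 second loop: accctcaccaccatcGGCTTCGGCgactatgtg
Kcnj11: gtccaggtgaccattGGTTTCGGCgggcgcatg
Kcnj8: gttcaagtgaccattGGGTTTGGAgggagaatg
Kcnj2: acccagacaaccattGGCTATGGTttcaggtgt
Kcnj3: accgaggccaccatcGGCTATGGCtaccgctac
Kcnj5: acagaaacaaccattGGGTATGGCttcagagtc
Kcnd2: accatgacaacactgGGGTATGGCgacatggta
Kcnd3: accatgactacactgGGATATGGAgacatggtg
Kcna5: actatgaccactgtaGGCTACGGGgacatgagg
Kcnh2: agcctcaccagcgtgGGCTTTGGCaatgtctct

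Of these 11 windows, 7 have a tyrosine codon in the middle of the capitals and 4 have a phenylalanine codon: Kcnh2, the second loop of Kcnk3, and both pores of the ATP-sensitive channel, Kcnj11 and Kcnj8. Kcnk3 has 2 windows because its subunit carries 2 pore loops. The windows of the near relatives differed by 4 of 33 bases between Kcnd2 and Kcnd3, by 7 between Kcnj11 and Kcnj8, and by 11 between Kcnj3 and Kcnj5. Over the whole aligned coding sequence of the main transcripts, 73.2% of bases were identical between Kcnd2 and Kcnd3, 72.4% between Kcnj11 and Kcnj8, 70.9% between Kcnj2 and Kcnj12 and 65.5% between Kcnj3 and Kcnj5. The longest run of identical bases in these alignments was 23, between Kcnd2 and Kcnd3.

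Windows within 1 exon lie at chr5:30622193-30622225 (second loop of Kcnk3, plus strand), chr7:46099487-46099519 (Kcnj11, minus), chr6:142566439-142566471 (Kcnj8, minus) and chr11:111072198-111072230 (Kcnj2, plus). Those of Kcnj3 and Kcnj5 lie at chr2:55437618-55437650 (plus) and chr9:32322550-32322582 (minus). Those of Kcna5 and Kcnh2 lie at chr6:126533736-126533768 (minus) and chr5:24325546-24325578 (minus). In 3 windows the filter is encoded across an exon junction, all on the plus strand. The first loop of Kcnk3 joins chr5:30588584-30588599 to chr5:30621891-30621907 over an intron of 33291 bases. Kcnd2 joins chr6:21217397-21217413 to chr6:21714135-21714150 over 496721 bases, and Kcnd3 joins chr3:105459905-105459921 to chr3:105658611-105658626 over 198689 bases.

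Few of the 94 genes carried most of the potassium channel RNA. Their TPM summed to 408 in replicate 1 and 430 in replicate 2, which was 0.111% ± 0.00349 of the TPM of nuclear protein-coding genes. A level of 1 TPM or more in both hearts was reached by 22 members (23.4%), against 10943 of 22015 nuclear protein-coding genes (49.7%). Kcnk3 alone held 21.1% ± 0.154 of the members' TPM, the first 3 (Kcnk3, Kcnip2 and Kcng2) 50.3% ± 0.0974, the first 5 (with Kcnj11 and Kcnj3) 63.1% ± 0.594 and the first 10 82.5% ± 1.65. A mean of 10 TPM or more was reached by 11 members, and 45 stayed under 0.1 TPM. The highest mean among these 45, 0.09 TPM, ranked 14125 of the 22015 nuclear protein-coding genes.

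**Figure D1:**
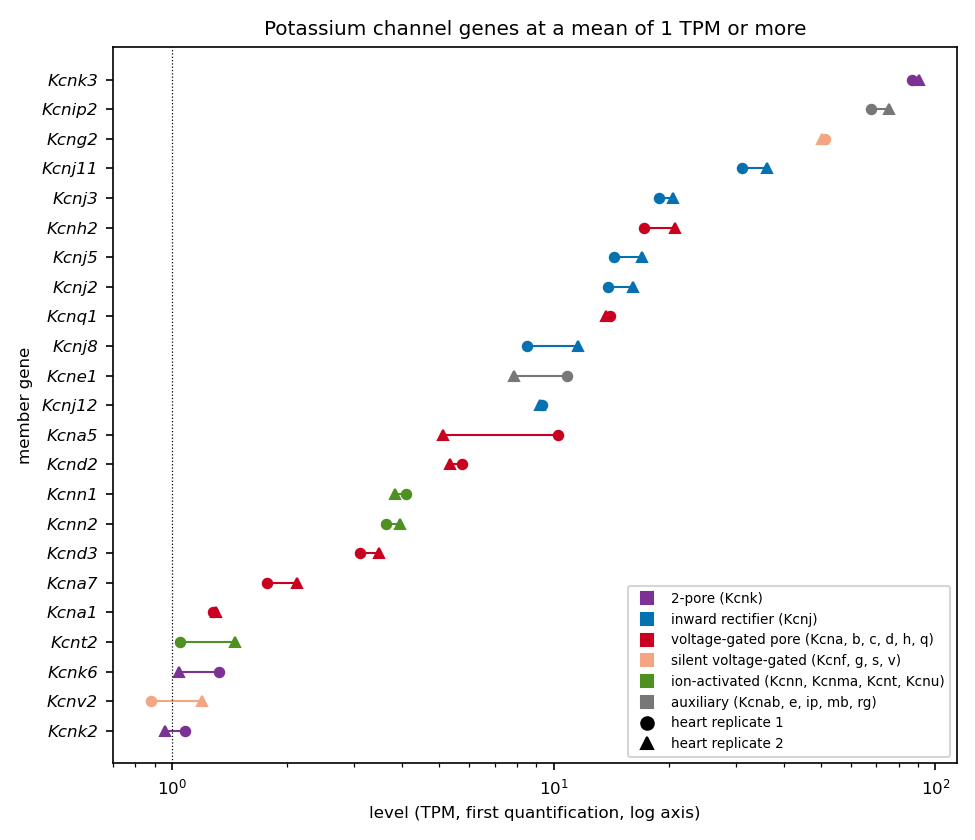
Level of 23 of the 24 potassium channel genes with a mean of 1 TPM or more (x axis, TPM on a log scale), with a circle for heart replicate 1 and a triangle for replicate 2, coloured by family. Kcnk3 is highest at 86.6 and 90.3 TPM, and the hearts are widest apart for Kcna5, at 10.3 and 5.12 TPM.

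At the other end, 12 members had 0 counts in both hearts, which allows up to 3 counts, or 0.0717 and 0.0706 CPM, a count divided by library size, in replicates 1 and 2. They included Kcne2, an auxiliary subunit that can join KCNH2 in human cells, Kcnj6, a brain inward rectifier, and the 2-pore genes Kcnk7, Kcnk9, Kcnk15, Kcnk16 and Kcnk18. The silent subunit genes Kcnf1, Kcns2 and Kcnv1, with Kcna10 and Kcnh5, made up the rest. All 12 shared rank 16487 of the 22015 nuclear protein-coding genes by mean TPM, the rank of every such gene at 0 TPM. In the second quantification Kcnj6 had 0 and 2.15 estimated counts and Kcnk9 2.00 and 1.00 in replicates 1 and 2. A further 10 members had 0 counts in 1 heart only. Detection at such levels is limited by depth, and absence cannot be told from a low level.

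By family, the RNA was spread over inward rectifiers, 2-pore channels, auxiliary subunits and voltage-gated pores. The 15 inward rectifier genes (Kcnj) held 24.9% ± 1.57 of the members' TPM, with 6 at 1 TPM or more in both hearts. The 14 2-pore genes (Kcnk) held 21.8% ± 0.304 and the 17 auxiliary genes (Kcnab, Kcne, Kcnip, Kcnmb and Kcnrg) 20.3% ± 0.0978, each with 2 genes at that level. The 30 voltage-gated pore genes (Kcna, Kcnb, Kcnc, Kcnd, Kcnh and Kcnq) held 18.0% ± 0.446 with 8 such genes. The 10 genes of silent subunits, which form no channel alone, held 12.5% ± 0.567, and of these Kcng2 was at that level. The 8 genes of channels opened by calcium or sodium inside the cell held 2.56% ± 0.152 with 3 such genes. Most of the 2-pore share came from Kcnk3, and most of the auxiliary share from Kcnip2.

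**Figure D2:**
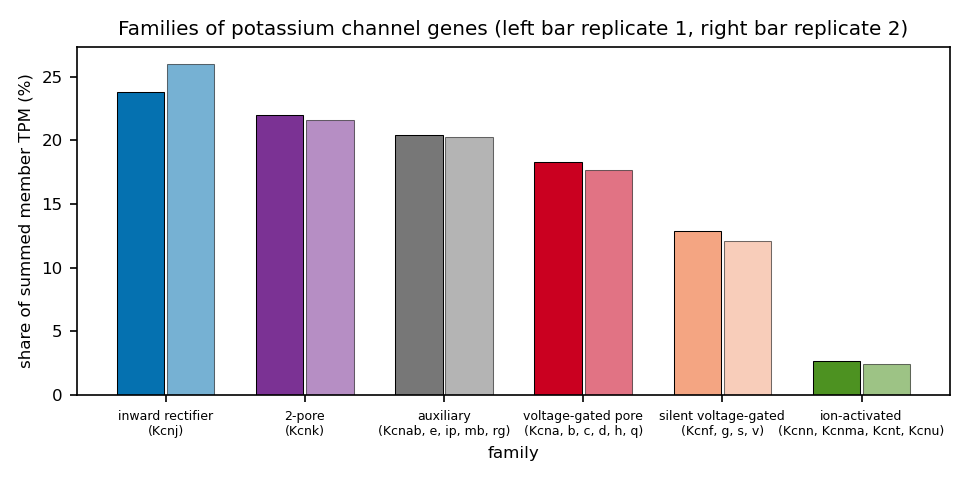
Share of the members' summed TPM (y axis, percent) held by each family, with the left bar for heart replicate 1 and the right bar for replicate 2. Inward rectifiers hold the most in both hearts, and the ion-activated channels hold 2.66% and 2.45%.

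Kcnk3 (chromosome 5, 30588170 to 30625271), which encodes the acid-sensitive background channel TASK1, was the most abundant potassium channel gene. It stood at 86.6 TPM (10270 expected counts) in replicate 1 and 90.3 TPM (10524) in replicate 2, and ranked 617 among nuclear protein-coding genes by mean TPM. The hearts were close: the log2 ratio of replicate 2 over replicate 1 was -0.01, with a 95% counting interval from -0.05 to 0.03. Its main transcript, Kcnk3-201 with 409 codons, held 93.1% ± 1.61 of the gene's TPM. Kcnk2, the mechanically gated channel TREK1, stood at 1.08 and 0.96 TPM, so Kcnk3 held 98.9% ± 0.127 of the TPM of that pair. Kcnk6, known as TWIK2, stood at 1.33 and 1.04 TPM, and no other 2-pore gene reached 1 TPM in either heart. The noncoding gene Gm9899, which overlaps Kcnk3 on the opposite strand, had 449 and 400 counts in replicates 1 and 2.

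Among inward rectifiers, the pores of the ATP-sensitive, acetylcholine-gated and strongly rectifying channels were all present. Kcnj2 (chromosome 11, 111066164 to 111076821) encodes Kir2.1, the main pore of the current that holds the resting potential. It stood at 13.8 and 16.1 TPM in replicates 1 and 2. Its relative Kcnj12, which encodes Kir2.2 (chromosome 11, 61022564 to 61071131), stood at 9.31 and 9.19 TPM. Kcnj2 held 61.7% ± 2.72 of the TPM of the pair and led in both hearts. The other genes of that class, Kcnj4 and Kcnj14, stayed at or under 0.06 and 0.52 TPM. Kcnj16, which lies 38195 bases from Kcnj2, had 0 and 2 counts, so neighbours on the chromosome differed widely in level.

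The acetylcholine-gated channel, which slows the heart on vagal input, is built from the products of Kcnj3 and Kcnj5. Kcnj3 (chromosome 2, 55435970 to 55598145) stood at 18.8 and 20.6 TPM and Kcnj5 (chromosome 9, 32314707 to 32344350) at 14.4 and 17.1 TPM in replicates 1 and 2. Kcnj5 held 44.4% ± 1.38 of the TPM of the pair. Kcnj6 had 0 counts and Kcnj9 had 0 and 1 counts. The genes that feed this channel were present as well. Chrm2, the M2 muscarinic receptor, stood at 30.1 and 30.9 TPM, and all 10 genes of the list of muscarinic and adenosine receptors, G proteins and their regulators reached 1 TPM in both hearts. Of these 10, Rgs2, which speeds the switching off of G proteins, was 2-fold apart, at 21.2 TPM in replicate 1 and 9.88 TPM in replicate 2 (log2 ratio -1.04). It fell just short of 2-fold under spike-in totals (-0.97) and in the second deposited quantification (-0.997).

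The ATP-sensitive channel opens when cellular energy falls, and joins a pore with a sulfonylurea receptor. Kcnj11 (Kir6.2, chromosome 7, 46093953 to 46100764) stood at 31.2 and 36.3 TPM in replicates 1 and 2. Kcnj8 (Kir6.1, chromosome 6, 142564837 to 142571614) stood at 8.51 and 11.6 TPM, and Kcnj11 held 77.2% ± 1.92 of the TPM of these pores. Each pore gene lies beside a receptor gene: Kcnj8 is 16247 bases from Abcc9 (SUR2), and Kcnj11 is 3758 bases from Abcc8 (SUR1). Abcc9 stood at 80.8 and 89.4 TPM and Abcc8 at 15.8 and 17.5 TPM, so the receptor gene with the higher level lay beside the pore gene with the lower one. Together the pore genes had 0.429 ± 0.0262 of the TPM of the receptor genes.

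The log2 ratio of Kcnj8 was 0.42 (95% counting interval 0.27 to 0.56), with 673 counts in replicate 1 and 928 in replicate 2, short of 2-fold. Kcnj8 is known in pericytes and vascular smooth muscle. The 7 markers of those cells summed to 240 and 244 TPM in replicates 1 and 2, with 2 of 7 higher in replicate 2 and a median log2 ratio of -0.03. Their part in the difference of Kcnj8 was not tested.

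The transient outward current of the mouse ventricle is carried by the Kv4 pores of Kcnd2 and Kcnd3 with KChIP2, the product of Kcnip2. Kcnip2 (chromosome 19, 45791839 to 45816061) was the second most abundant member, at 67.8 TPM (4578 counts) in replicate 1 and 75.4 TPM (5126) in replicate 2. Kcnd2 (chromosome 6, 21215503 to 21729805) stood at 5.76 and 5.36 TPM and Kcnd3 (chromosome 3, 105452330 to 105674002) at 3.10 and 3.49 TPM. The auxiliary gene was thus far above its pores: Kcnip2 had 8.09 ± 0.617 times the TPM of Kcnd2 and Kcnd3 together. Kcnd2 held 62.8% ± 3.14 of the TPM of the pore pair, and 91.4% ± 1.68 against Kcna4, the slower transient outward pore, which stood at 0.46 and 0.58 TPM. Kcnd1, Kcnip1 and Kcnip4 stayed at or under 0.11, 0.04 and 0.04 TPM, and Kcnip3 stood at 0.73 and 0.71 TPM. Dpp6, a partner of Kv4 channels in brain, had 2 and 4 counts and Dpp10 had 0 in both hearts. The second quantification gave Dpp10 22.6 and 26.1 estimated counts in replicates 1 and 2, so its level is uncertain.

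Kcna5, which encodes Kv1.5, is known to carry part of the slowly inactivating current in mouse heart. Kcna5 (chromosome 6, 126532551 to 126535412) stood at 10.3 TPM in replicate 1 and 5.12 TPM in replicate 2. Kcna5 was the member whose hearts were widest apart among those at 1 TPM or more in both. Kcna1 and Kcna6 lie beside Kcna5 on chromosome 6, with 104984 bases between Kcna5 and Kcna1. Kcna1 stood at 1.28 and 1.30 TPM and Kcna6 at 0.30 and 0.46 TPM, so the low value of Kcna5 in replicate 2 was not seen in these neighbours. Kcna7 (Kv1.7) stood at 1.77 and 2.13 TPM.

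Kcng2 encodes Kv6.2, a silent subunit which forms channels only together with other voltage-gated subunits. It was the third most abundant member, at 51.5 and 50.6 TPM (3814 and 4027 counts) in replicates 1 and 2 (chromosome 18, 80294546 to 80364254). The hearts were close, with a log2 ratio of 0.03 (95% counting interval -0.03 to 0.10). Kcnv2, another silent subunit, stood at 0.88 and 1.20 TPM, and the other 8 silent subunit genes stayed at or under 0.18 TPM.

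Kcnh2 (ERG1, chromosome 5, 24319589 to 24351604) is the pore of the rapid delayed rectifier, and Kcnq1 (chromosome 7, 143106362 to 143427042) with Kcne1 forms the slow one. Kcnh2 stood at 17.3 and 20.8 TPM and Kcnq1 at 14.1 and 13.7 TPM in replicates 1 and 2. Kcne1 (chromosome 16, 92345982 to 92359468) stood at 10.8 TPM in replicate 1 and 7.88 TPM in replicate 2. All 3 genes were within the first 12 members by level. Kcnq1 held 60.0% ± 4.89 of the TPM of the pair with Kcne1 and led in both hearts. Kcnq1ot1, the antisense RNA that overlaps Kcnq1, had 850 and 876 counts but 0.27 and 0.28 TPM, and the sources used here do not give the strand setting of the counting. Of the neuronal M-current genes, Kcnq5 stood at 0.96 and 0.76 TPM, and Kcnq3 at 0.01 and 0.03 TPM, or 0.0816 and 0.118 TPM in the second quantification.

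Calcium-activated SK channels were present at low levels. Kcnn1 stood at 4.11 and 3.83 TPM, Kcnn2 at 3.63 and 3.96 TPM and Kcnn3 at 1.03 and 0.71 TPM in replicates 1 and 2. Kcnn1 and Kcnn2 differed by less than the SD between the hearts, and Kcnn2 held 81.3% ± 4.88 of the TPM of the pair with Kcnn3. Kcnt2, a sodium-activated channel, stood at 1.05 and 1.46 TPM. Kcnma1, the BK channel known from smooth muscle, stood at 0.22 and 0.23 TPM and its subunit Kcnmb1 at 0.25 and 0.31 TPM. The cytoplasmic beta subunits Kcnab1 and Kcnab2 stood at 0.69 to 0.84 TPM.

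In 14 pairs of related or partner genes, the gene named first led in 10. The pairs were chosen with earlier results of these data known. Which gene is named first is a matter of naming, so no more is read from this count. The pairs led by the second gene included Kcnj5 with Kcnj3, Kcnma1 with Kcnmb1, and Kcnab1 with Kcnab2. Kcnma1 led by a little in the second quantification, with 50.8% of the TPM, and Kcnab1 led there with 52.1%, so that 12 pairs were led by the first gene. The pair of Kcnab1 and Kcnab2 had no fixed leader, since Kcnab1 held 46.6% of the TPM in replicate 1 and 52.5% in replicate 2. Outside the channel genes, 14 of 16 partner subunits and anchoring proteins reached 1 TPM in both hearts, the exceptions being Dpp6 and Dpp10. All 8 transcription factors of the list of channel gene regulators did so too. Klf15, known to drive Kcnip2 in mouse heart, stood at 30.5 and 32.3 TPM. Irx5, known to repress Kcnd2 in mouse heart, stood at 2.41 TPM in replicate 1 and 3.77 TPM in replicate 2 (log2 ratio 0.60).

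Most members differed little between the hearts. With 1 group of 2 hearts there is no test: an exact sign permutation cannot go below p = 0.5, so a gene was called apart by size, at a ratio of 2-fold or more and a mean expected count of 50 or more. By this rule 2 of 34 members were apart, both lower in replicate 2, whereas 1.28% of all 12541 genes at that count were apart and 1.00% were lower in replicate 2. At 1.5-fold, 4 of 34 members were apart, against 4.27% of all genes. With so few members called, no more is read from these shares. Over the 49 members with a mean count of 10 or more, the median log2 ratio was -0.01, with 24 above and 25 below 0, and over all 15749 genes it was 0.00. The median absolute log2 ratio was 0.17 for these members and 0.13 for all genes. Of the 22 members at 1 TPM or more in both hearts, 20 were within 1.5-fold. At a mean count of 50 or more, 30 of 34 members (88.2%) were within 1.5-fold, against 95.7% of all 12541 genes.

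The members called were Kcna5 and Kcne4. Kcna5 had 955 counts in replicate 1 and 478 in replicate 2, a log2 ratio of -1.04 (95% counting interval -1.20 to -0.88). Kcne4 (chromosome 1, 78816758 to 78820028), an auxiliary subunit known to inhibit KCNQ1 channels, had 93 and 42 counts, a log2 ratio of -1.17 (-1.75 to -0.65). Scaled by spike-in totals, Kcna5 fell short of 2-fold at -0.97 and Kcne4 did not. Both intervals lie wholly below 0 and both reach inside 2-fold, that of Kcne4 further than that of Kcna5. Next came Kcna2, which stood the other way with 107 and 200 counts (0.85, 0.51 to 1.21). Kcne1 followed with 380 and 260 counts (-0.59, -0.83 to -0.36), then Kcnn3 with 185 and 136 (-0.49, -0.82 to -0.16). These intervals cover counting error only.

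**Figure D3:**
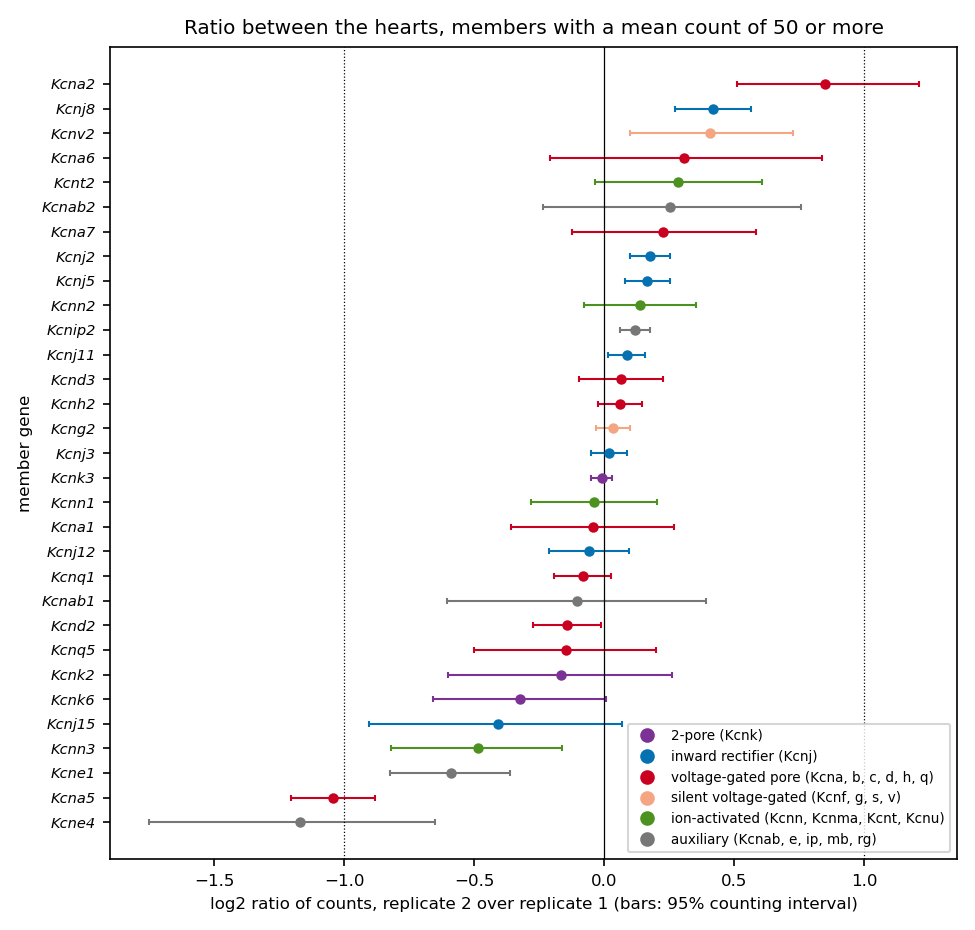
Log2 ratio of replicate 2 over replicate 1 (x axis) for 31 of the 34 members with a mean count of 50 or more, with 95% counting intervals as bars and dotted lines at 2-fold. Kcne4 and Kcna5 lie beyond the lower line and no member lies beyond the upper one.

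Several marker lists differed between the hearts beside these genes. All 5 atrial markers were lower in replicate 2, with a median log2 ratio of -0.44, but by unequal amounts: Myl7 at -0.50, Myl4 at -0.44 and Sln at -0.50, against Nppa at -0.02 and Bmp10 at -0.05. The 4 ventricular markers were all higher in replicate 2, with a median of 0.12. All 5 adipocyte markers were lower in replicate 2 (median -3.26), among them Ucp1 with 1635 and 46 counts. Of the 4 lymphocyte markers, the 2 with a mean count of 10 or more were higher in replicate 2 (median 1.04), Cd79a with 18 and 43 counts and Ms4a1 with 14 and 28. Of the 4 fibroblast markers 3 were lower in replicate 2 (median -0.22). Of the 10 Schwann cell and neuronal markers, Chat had 0 counts in both hearts and the list summed to 3.71 and 2.74 TPM. The part of these cells in the differences of Kcna5, Kcne4, Kcne1, Kcnn3 and Kcna2 was not tested. Kcnj3 and Kcnj5, whose channel is known chiefly from atrium and sinus node, had log2 ratios of 0.02 and 0.17. Of the 8 sinus node and conduction markers, 7 had a mean count of 10 or more. Of those 7, 5 were lower and 2 higher in replicate 2 (median -0.07). The part of atrial or sinus node cells in the ratios of Kcnj3 and Kcnj5 was not tested.

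The abundant pore genes were mostly represented by transcripts that encode a whole filter. At least 1 transcript with the filter codons was annotated for 77 of 77 pore-type members, all 14 2-pore genes had transcripts with 2, and 0 of 17 auxiliary genes had any. Over all members, 207 of 397 transcripts held the codons. These transcripts held 73.4% ± 0.197 of the members' TPM, the rest being mostly auxiliary genes. In each of the 22 pore-type members with a mean of 1 TPM or more, the main transcript held the filter. The lowest mean share was that of Kcnj8, where Kcnj8-201, with 127 codons and no filter, took 35.6% of the gene's TPM in replicate 1 and 26.9% in replicate 2. The second quantification gave this transcript 0% and 3.00%, so its level is uncertain.

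**Figure D4:**
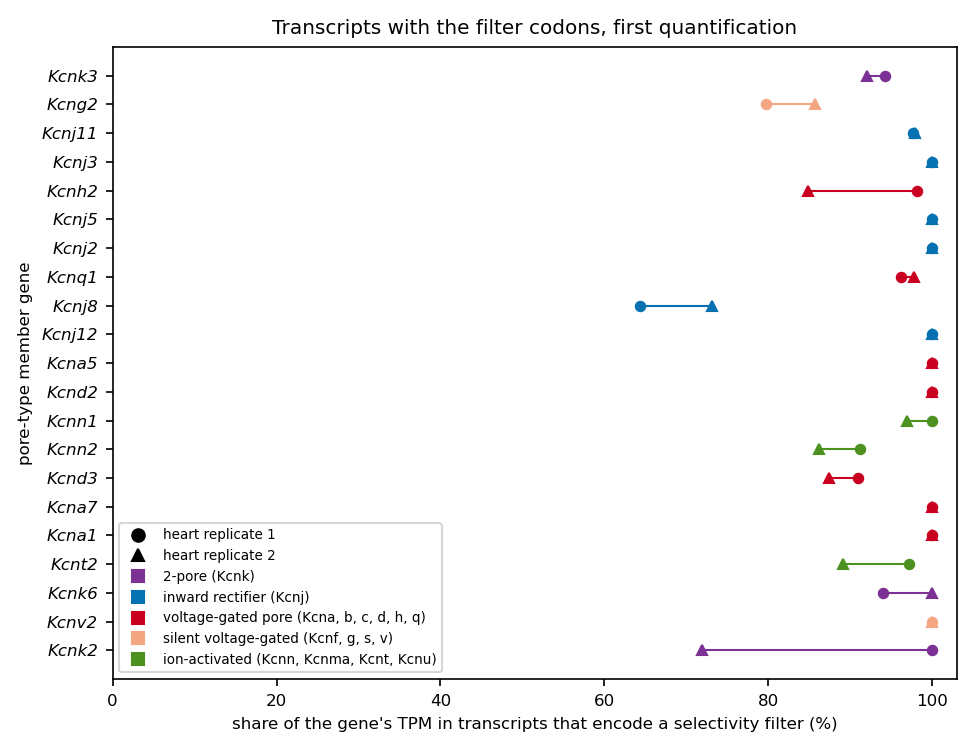
Share of each pore gene's TPM held by transcripts that encode the selectivity filter (x axis, percent) in heart replicate 1 (circle) and replicate 2 (triangle), for 21 of the 22 pore-type members with a mean of 1 TPM or more. By the mean over the hearts Kcnj8 is lowest, at 64.4% and 73.1%, and Kcnk2 is the gene whose hearts are widest apart, at 100% and 71.9%.

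Of the 24 members with a mean of 1 TPM or more, 19 had several annotated transcripts, and in 16 of these the same transcript was the main one in both hearts. Kcnip2 was split over 3 transcripts: Kcnip2-202 (252 codons) held 55.2% ± 1.31, Kcnip2-209 (270 codons) 27.5% ± 1.78 and Kcnip2-208 (220 codons) 13.6% ± 0.474. Kcnh2-201, with 1162 codons, held 62.7% ± 5.38, and the shorter Kcnh2-202, with 820 codons and the same filter, held 28.8% ± 4.00. A long and a short ERG1 protein that assemble together are known from mammalian heart. Kcnd3-202 (636 codons) held 69.4% ± 4.84 and Kcnd3-201 (655 codons) 17.6% ± 0.778.

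In other genes the split was between transcripts of equal coding length. Kcnj5-201 held 76.6% ± 4.75 and Kcnj5-202 23.5% ± 4.75, both with 419 codons. Kcne1-202 held 80.3% ± 1.91 and Kcne1-201 19.8% ± 1.91, both with 129 codons. For these genes the transcripts give the same coding length whichever is taken as the main one.

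The second deposited quantification, made directly from the reads, gave nearly the same order. Over the 22 members at 1 TPM or more in both hearts, its mean TPM was 0.978 to 1.36 times the first, with a median of 1.11, and 19 of 22 were higher in it. The largest ratio among these was that of Kcnj3, with 26.7 TPM there against 19.7 TPM. In the second quantification Kcnj3-203 took 29.6% and 34.5% of the gene's TPM in replicates 1 and 2, against 0.61% and 7.82% in the first quantification. Lower members moved more: Kcnab1 was 1.64 times as high in the second, and Kcnab2 had 1.16 TPM there against 0.775 TPM. The ratios between the hearts of Kcna5 and Kcne4 were -1.03 and -1.21 there.

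**Figure D5:**
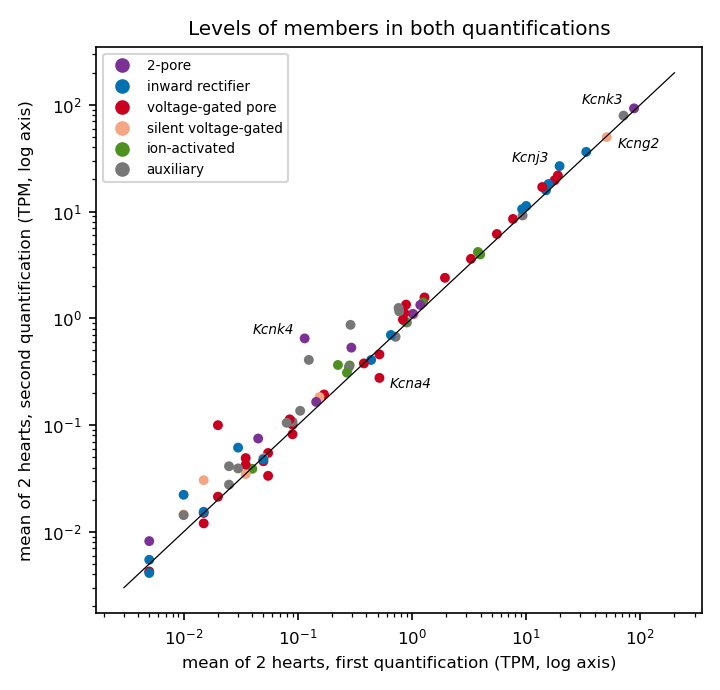
Mean level over the hearts in the second quantification (y axis) against the first (x axis), both in TPM on log scales, for the 81 members above 0 in both, coloured by family, with the line of equality. Abundant members lie close to the line, and the widest departures are at low levels.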

How the data were processed

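The authors deposited expected counts for genes and transcripts, derived from transcriptome alignments (mm10, GENCODE M21), per the sample notes. TPM, FPKM and the percent of a gene's TPM per transcript were deposited by the authors beside them, scaled over all listed entries with spike-ins included. A second quantification, which the sample notes derive from the reads with an index, gives estimated counts and TPM per transcript as deposited by the authors, and was summed per gene here. For tools and versions: not given in the sources used here.

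Log2 ratios of replicate 2 over replicate 1 used expected counts, a prior count of 1 and TMM scaling (edgeR 4.0.16, R 4.3.3, counts rounded, without spike-ins). Their 95% intervals are exact Clopper-Pearson intervals and cover counting error only, because PCR copies without identifiers are not independent. A gene was called apart at 2-fold and a mean count of 50, a rule of size and no test. Ratios and intervals were also run on counts simulated with counting error alone. That checks the arithmetic and cannot cover PCR copies or variation between hearts. Positions and coding sequences come from GENCODE M21, and coding sequences were aligned end to end with Biopython 1.88. DESeq2 1.42.0 size factors were an alternative.

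The members, lists and pairs were chosen with earlier results of these data known. Named are members with a mean of 1 TPM or more, those of fixed classes, pairs and lists, and the 10 with the largest ratio between the hearts or between the quantifications. Kcna6, Kcna10, Kcnh5 and Kcnj16 were named after their values were seen, or complete a count. No amino acid sequences were used. Results for some members are not reported here, and figures leave them unnamed or out.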

Additional observations from a re-analysis of the deposited data

How the results depend on the processing

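Every log2 ratio of the 29 members followed here was recomputed under 3 other scalings and in the second quantification: of 116 values 109 kept their call and stayed within their counting interval, 6 moved beyond their counting interval, and Kcna5 fell short of 2-fold at -0.97 under spike-in totals. The sign changed in 6 values of 4 members, none beyond 0.06. Of 29 levels, 14 moved by more than the SD between the hearts in the second quantification. Members detected numbered 47 at 10 expected counts in both hearts instead of 22 at 1 TPM, and 23 to 25 in 1 heart alone. The number also depended on the TPM limit, with 33 members at 0.5 TPM and 15 at 5 TPM in both hearts. The share of the 5 most abundant was 58.5% by expected counts, 61.9% in the second quantification and 61.7% over transcripts of 600 bases or longer, an alternative chosen after seeing the data, and 62.6% to 63.5% in 1 heart alone. Members apart numbered 1 under spike-in totals (Kcne4), 4 at 1.5-fold and 0 at 3-fold, instead of 2. By count limit they numbered 1 at a mean count of 200 (Kcna5), 3 at a mean count of 10 and 17 with no count filter. Pairs led by the first gene numbered 10 to 11 in 1 heart alone. Other values of these results, the median ratio included, stayed within 1.5 times or within the spread. No paired analysis was possible because there is 1 group. Depth limits the 45 members with a mean count under 10, and 2 hearts limit every SD.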

Other observations

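The noncoding genes with Kcn symbols, which were left out of the 94, were all low in TPM. Apart from Kcnq1ot1 they were low in counts too. Kcnq1ot1 and Kcnd3os each had a mean of 0.275 TPM. Kcnd3os, antisense to Kcnd3, had 9 counts in replicate 1 and 8 in replicate 2. Kcnmb4os2 had 1 and 3 counts, and Kcnab3os and Kcnmb4os1 had 0 in both hearts.

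Genes of the circadian clock, chosen after their values were seen, differed between the hearts. Dbp stood at 5.01 TPM in replicate 1 and 16.4 TPM in replicate 2, and Per3 at 1.54 and 4.02 TPM. Per1 stood the other way at 25.3 and 12.6 TPM, and Arntl, a core activator of the clock, at 8.30 and 4.75 TPM. In mouse heart the clock is known to drive Klf15 and through it Kcnip2. Klf15 had a log2 ratio of 0.04 and Kcnip2 one of 0.12 in these samples. The part of the clock in the levels of Klf15 and Kcnip2 and in the difference of Kcna5 was not tested.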
